A study of Sus scrofa with 4 samples.

Results

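The metallothionein genes of the pig were followed through regenerated bone, cell class by cell class and library by library. The members are 5 of the 20648 genes in the count tables, found by their symbols: MT-2B, MT1A, MT1D and MT3, and LOC102166944, a protein-coding gene that lies among them and has only a LOC symbol. They were selected on results of these libraries, and both their levels over classes and the contrast of the peptide groups are counted as used in that choice. The rule itself takes the named rows and sets no threshold, so levels and group differences are given as a description. The tissue was regenerated bone, taken at an age of 8 months from Bama mini-pigs (Sus scrofa), a small breed, and the series concerns peptides that act on bone regeneration. A peptide called 1797 was set against a control peptide, with 2 droplet single-cell 3′ libraries in each group. In both groups the bone was minced and digested with type I collagenase and the red cells were lysed. The labels give no dose, time after surgery or sex, and do not say whether each library stands for another animal. Any p-value below therefore measures only the spread between these libraries, which may be technical.

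Metallothioneins are small, cysteine-rich proteins of the cytosol and nucleus that bind zinc and copper, and also cadmium, through clusters of sulphur ligands. Their genes are switched on by free zinc through the transcription factor MTF1 and respond as well to glucocorticoids, inflammatory cytokines and oxidative stress. In monocytes and macrophages they are part of the handling of zinc during inflammation. The MT1 and MT2 forms are made by many cell types, and MT3 is best known from the brain.

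In the RefSeq annotation of the Sscrofa11.1 build the members stand side by side on chromosome 6. MT3 lies at 18634735 to 18636134, MT-2B at 18645125 to 18646034, MT1D at 18650985 to 18652317, LOC102166944 at 18660665 to 18662000 and MT1A at 18672016 to 18673673, a span of 38.9 kb from the start of MT3 to the end of MT1A. Each is annotated as protein-coding. The neighbouring MT4 (18611245 to 18613956), known from stratified epithelium, had 7 UMIs in all kept cells, and LOC100739663 (18655972 to 18657515), which lies between MT1D and LOC102166944, had 65. A long non-coding RNA, LOC110260926 (18647745 to 18656572), overlaps MT1D and LOC100739663 in that annotation, and reads from overlapping genes may not be told apart in MT1D. Metallothionein genes resemble one another closely, so reads that match more than one of them may have been dropped or placed with another member, and the levels of the scarcer members are uncertain to that extent.

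The 1797 libraries had 14496 and 13449 barcodes and the control ones 13982 and 12133, with 87844389 to 98758412 UMIs (unique molecular identifiers, each standing for 1 captured RNA molecule) per library. After filtering 49137 cells were kept, 11466 to 12765 per library, with a median of 3145.5 to 5345 UMIs per cell. Library 1 of the 1797 group stood apart in quality, with 1159 barcodes under 200 genes (55 to 309 in the others) and a median mitochondrial share of 4.18% (2.82% to 2.97% in the others). Any 2 libraries shared 42 to 63 cell barcodes. Cells were grouped into 30 clusters without use of the 5 members, and 15 classes were named from marker genes (each name means cells with the markers of that type) while 8 clusters stayed unnamed. Every named class had all of its measured markers above 0, so that check cannot tell good names from weak ones. More telling is for how many markers a class was among the 2 classes with the highest level. That held for 10 of 10 markers in endothelial-like, 9 of 10 in macrophage-like and 6 of 10 in monocyte-like cells. In dendritic cell-like cells it held for only 4 of 10, so that name is less sure. The summed level of the monocyte list was 3399 to 3642 CPM (counts per 1000000 UMIs of the class in a library) in 1797 and 2832 to 3769 CPM in control monocyte-like cells. The macrophage-like class joins 2 clusters, of which the deep one (median 22309 UMIs per cell against 862.5) scored slightly higher for osteoclast than for macrophage markers (mean z of 1.98 and 1.92) and has ATP6V0D2 among its leading genes. That cluster supplied 88.8% to 96.6% of the UMIs of the class in a library, so the macrophage-like sums are mainly its own.

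MT-2B was by far the most often counted member. It had 65501 UMIs in the kept cells, against 1890 for LOC102166944, 1270 for MT1A, 242 for MT3 and 219 for MT1D. MT-2B thus made up 94.8% of the UMIs of the 5 members, and 7661 of 49137 cells had at least 1 of its UMIs.

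In the control libraries MT-2B was highest in monocyte-like cells, a class led by ARG1 and IL1B. The monocyte-like level was 1918 CPM in control library 1 and 1310.1 CPM in control library 2, a mean of 1614 ± 430 CPM (SD, n = 2). Endothelial-like cells, which line the vessels, followed at 790.3 ± 63.7 CPM and dendritic cell-like cells, which present antigen, at 723 ± 335 CPM. Both control libraries had more MT-2B in the monocyte-like than in the other 2 classes, whose own ranges overlapped. The unnamed cluster 6, a shallow cluster led by an uncharacterised gene with CXCL9 and ELANE among its leading genes, came next at 419 ± 149 CPM. Macrophage-like cells held 141 ± 13.2 CPM and T cell-like cells 93.4 ± 15.6 CPM. Between T cell-like cells and the lymphoid cluster 7, neighbours in the order mostly overlapped, from cluster 13 through eosinophil-like, mast or basophil-like, stromal or osteoblast-like, NK or cytotoxic T-like, neutrophil-like and erythroid-like cells to cluster 22. B cell-like cells were last of the 18 classes that had 20 or more cells in each library, at 15.8 ± 0.941 CPM.

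**Figure D1:**
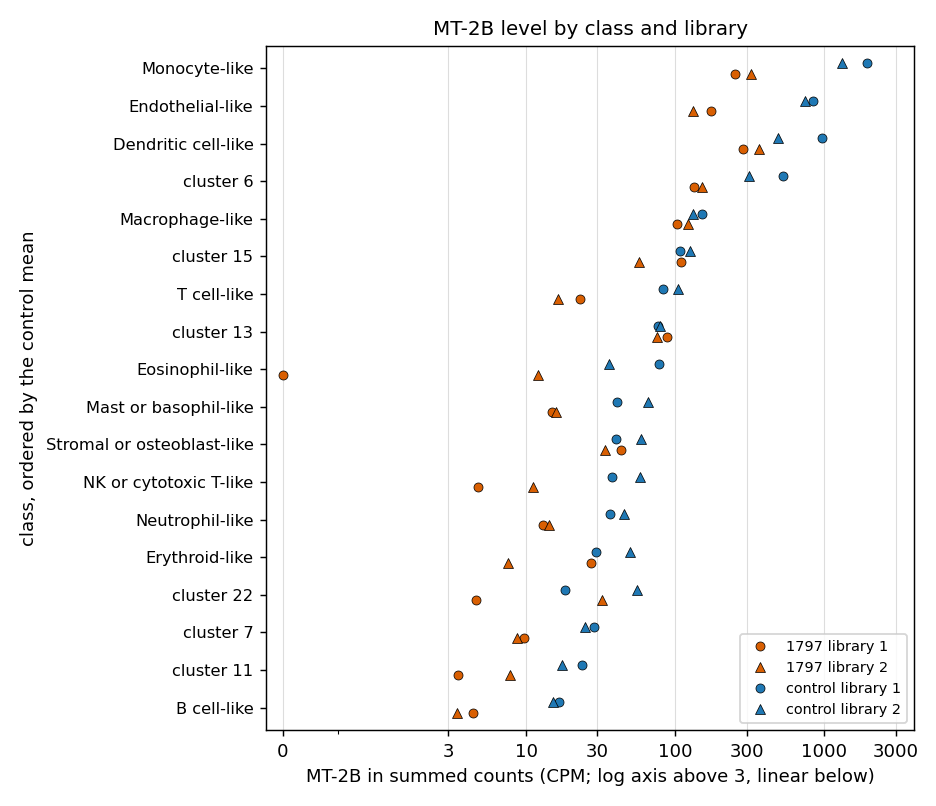
MT-2B in counts summed per class and library (CPM, horizontal axis, logarithmic above 3 and linear below), for 18 classes ordered by the mean of the control libraries. Circles are library 1 and triangles library 2, orange for the 1797 peptide and blue for the control peptide. The control points of monocyte-like cells lie at 1918 and 1310.1 CPM and the 1797 points at 251 and 322, while the points of both groups lie close together in macrophage-like, stromal or osteoblast-like and cluster 13 cells.

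The order of the classes was not the same in the 1797 libraries. Dendritic cell-like cells stood first at 325 ± 57.2 CPM (SD, n = 2) and monocyte-like cells second at 287 ± 50.3 CPM, with overlapping ranges. Endothelial-like cells (153 ± 29.5 CPM), cluster 6 (142 ± 13.4 CPM) and macrophage-like cells (112 ± 14.3 CPM) followed, and B cell-like cells were again last at 3.93 ± 0.682 CPM. Among the 18 classes, the distance between the top class and macrophage-like cells was thus smaller under 1797 than under the control peptide. This leaves out chondrocyte-like cells and is a description that has no test of its own.

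In the sum of all cells, every member was lower in both 1797 libraries than in both control libraries. MT-2B stood at 86.9 and 92.3 CPM in the 1797 libraries and at 286 and 259.6 CPM in the control libraries. The groups lay far apart relative to their spread, with means of 89.6 ± 3.81 and 273 ± 18.5 CPM (SD, n = 2 each) and a log2 fold change of -1.62 ± 0.19 (SE from edgeR). MT1A stood at 3.39 and 0.982 CPM against 5.07 and 4.77 CPM, so that library 1 of the 1797 group came near the control range. LOC102166944 stood at 1.70 and 1.18 CPM against 10.9 and 7.18 CPM, a log2 fold change of -2.68 ± 0.36. The scarce MT3 had 13 and 12 UMIs under 1797 against 127 and 90 under the control peptide, or 0.157 and 0.128 CPM against 1.43 and 0.962 CPM. MT1D had 7 and 10 UMIs against 141 and 61, or 0.0843 and 0.107 CPM against 1.59 and 0.652 CPM. Without library 1 of the 1797 group, whose quality stood apart, the log2 fold change was -1.51 for MT-2B, -2.27 for MT1A (-1.22 with it) and -2.87 for LOC102166944. Without library 2 of the 1797 group the MT1A value was -0.62, so its size depended on which 1797 library was used. The MT1D value was -3.55 ± 0.66, and -2.74 without control library 1. A sum over all cells cannot tell fewer cells of a high class from less RNA per cell.

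**Figure D2:**
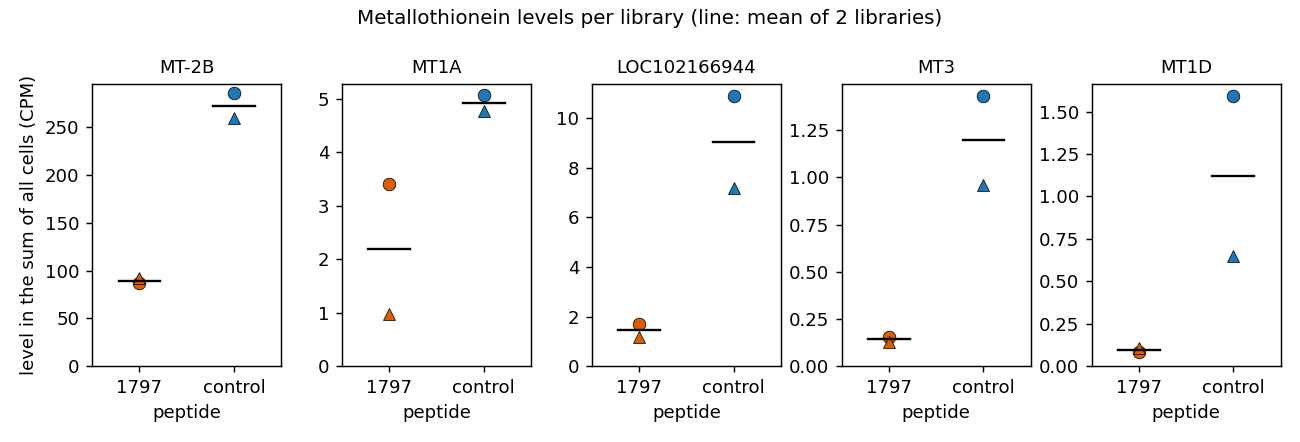
Level of each member in the sum of all kept cells (CPM, vertical axes from 0, each panel on its own scale) in the 1797 and control libraries; circles are library 1, triangles library 2 and the lines the mean of 2 libraries. All 5 members have both 1797 points below both control points, and for MT1A the 1797 points are wide apart at 3.39 and 0.982 CPM.

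Of the 16654 genes tested in the sum of all cells, edgeR's quasi-likelihood test called 0 at a Benjamini-Hochberg adjusted p of 0.05, and so 0 of the 5 members (background 0%). At an unadjusted p under 0.05, 4 of the 5 members were lower in 1797, all but MT1A, against 0.733% of all genes. DESeq2 called 4 of 5 lower, again all but MT1A, against 0.054% of all genes called lower by it. Both 1797 libraries lay below both control libraries for 5 of 5 members and for 12.2% of all genes. Since the members had been proposed with this contrast in view, nothing is read from these counts.

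Monocyte-like cells made up 3.78% to 5.75% of the cells of a library and, being deep, 6.63% to 12.6% of its UMIs. They held 63.7% and 55.7% of the MT-2B UMIs of the control libraries, and 19.2% and 44.1% of those of the 1797 libraries. With these cells left out, MT-2B stood at 75.2 and 59.0 CPM in the 1797 libraries and at 114 and 129 CPM in the control libraries. Leaving out dendritic cell-like, macrophage-like, endothelial-like and chondrocyte-like cells as well gave 20.1 and 13.6 CPM against 51.2 and 55.6 CPM. The groups did not overlap in either sum. The control mean was 3.04 times the 1797 mean in all cells, 1.82 times without monocyte-like cells and 3.17 times without the 5 classes.

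Within monocyte-like cells the 1797 libraries held MT-2B at 251 and 322 CPM, and the control libraries at 1918 and 1310.1 CPM. The ranges were far apart, with a control mean 5.63 times the 1797 mean and a log2 fold change of -2.44 ± 0.27 (SE). Endothelial-like cells held 174 and 132 CPM against 835 and 745 CPM, a log2 fold change of -2.29 ± 0.22. Their number was uneven, with 729 and 77 cells in 1797 and 169 and 252 in control, and their median depth was 2741 UMIs in control library 1 against 7943 to 14497.5 in the other 3. Dendritic cell-like cells held 285 and 365 CPM against 960.0 and 486 CPM (log2 fold change -1.14 ± 0.33), where the gap between the groups was smaller than the gap between the 2 control libraries. Without library 1 of the 1797 group the 3 values were -2.28, -2.54 and -0.97. The dendritic cell-like value was -0.54 without control library 1.

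Lymphoid classes showed the same direction at lower levels. T cell-like cells held MT-2B at 22.8 and 16.2 CPM in 1797 and at 82.3 and 104 CPM in control (log2 fold change -2.24 ± 0.23). NK or cytotoxic T-like cells, led by GNLY, held 4.76 and 11.13 CPM against 37.4 and 57.6 CPM (-2.66 ± 0.43, and -3.28 without 1797 library 2). B cell-like cells held 4.41 and 3.44 CPM against 16.5 and 15.2 CPM (-1.95 ± 0.27). In each of these 3 classes the groups were clear of one another. Cluster 7, which has SOX13 and BLK among its leading genes, gave -1.55 ± 0.22. Neutrophil-like cells, a class of low depth, held 12.9 and 14.2 CPM against 36.3 and 45.4 CPM (-1.46 ± 0.42).

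MT-2B differed less between the groups in some classes. Macrophage-like cells held 102 and 122 CPM in the 1797 libraries and 149.9 and 131 CPM in the control libraries, a log2 fold change of -0.27 ± 0.17. The control mean was there 1.26 times the 1797 mean, and the groups just failed to overlap. In the deep macrophage cluster with osteoclast markers the levels were 106 and 123 CPM against 149 and 135 CPM. Its shallow neighbour, led by C1QA and CD5L, held 62.3 and 102 CPM against 159 and 89.9 CPM, with overlapping groups. Stromal or osteoblast-like cells, the matrix-forming class with COL1A1 and IBSP, held 43.2 and 33.5 CPM against 39.7 and 59.2 CPM, also overlapping (-0.37 ± 0.31). That class had only 45 cells in its smallest library. Cluster 13, a shallow cluster led by CA3, had 88.1 and 75.1 CPM against 76.3 and 78.7 CPM. Cluster 15, also shallow, had 109.6 and 57.3 CPM against 107 and 125 CPM. An edgeR interaction test set the MT-2B difference against that in monocyte-like cells. It departed by 2.21 ± 0.22 on the log2 scale in macrophage-like cells (adjusted p = 0.052, 0% of genes called). In cluster 15 it departed by 1.99 ± 0.44 (adjusted p = 0.041, 0.102% of genes called). These fits, 13 in all, were chosen after seeing the data, and p was adjusted within each fit only. The monocyte-like values are among those that led to the choice of the members, so the tests are no independent evidence.

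**Figure D3:**
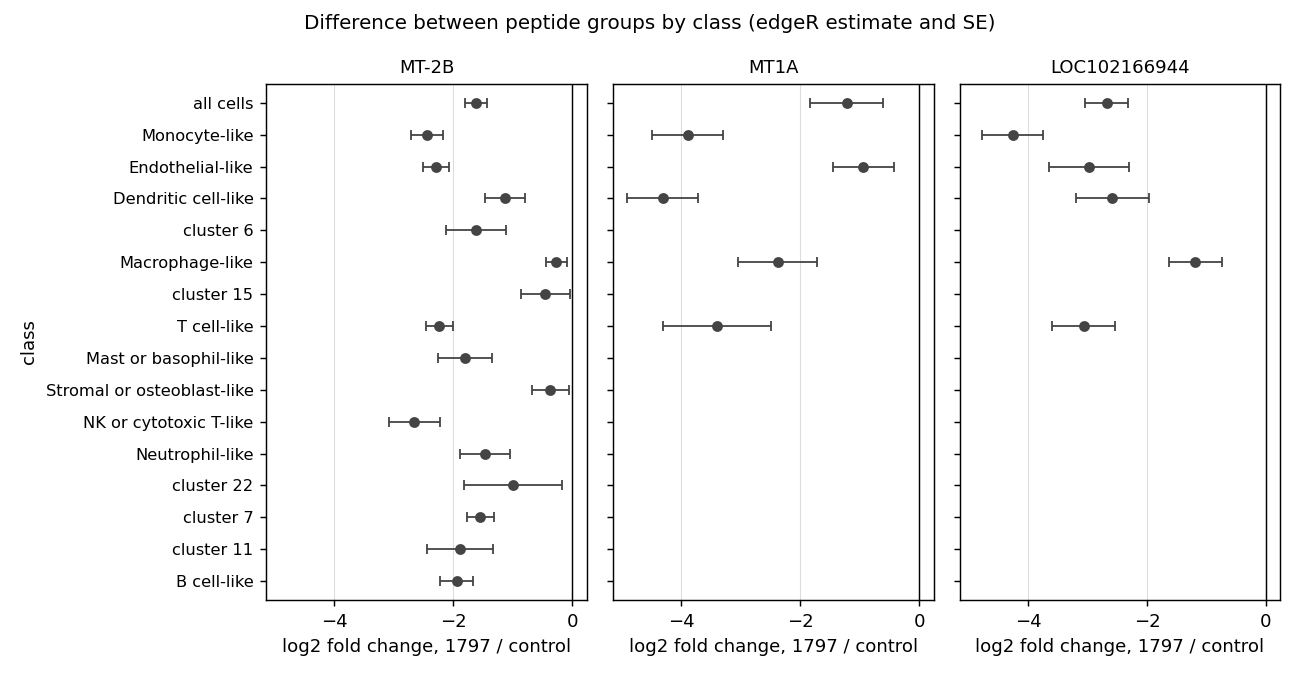
Log2 fold change of 1797 over control (horizontal axis; points are edgeR estimates and bars 1 SE) for MT-2B, MT1A and LOC102166944, by class and in the sum of all cells; a class without a point had too few counts of that gene to be tested. Every point lies below 0, and the MT-2B points of macrophage-like (-0.27), stromal or osteoblast-like (-0.37) and cluster 15 cells (-0.45) lie nearest to it.

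Fits were made for 14 classes, each with 50 or more cells per library, and 25 tests of a member passed the filter on low counts: 14 of MT-2B, 5 each of MT1A and LOC102166944, 1 of MT3 and 0 of MT1D. Members could pass through the group where they are high, so these 25 tests do not stand for all members in all classes. All 25 log2 fold changes were below 0. The edgeR test called 0 of the 25, with adjusted p from 0.16 (MT-2B in T cell-like cells) to 1.00, against 0.00283% of the tests of all genes. At an unadjusted p under 0.05, 21 of 25 were lower in 1797, against 2.72% of all tests. DESeq2 called 12 of 25 lower (0.117% of all tests), among them MT-2B in 6 of 14 classes. Both 1797 libraries were below both control libraries in 23 of 25, against 18.8% of all tests. Without the filter on low counts edgeR called 8 of 65 member tests (0.263% of all tests), and with the replicate number as a block 2 of 25 (0.012%), or 2 with the numbers crossed (0.0616%). Again nothing is read from these counts, because the contrast was known when the members were proposed.

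The number of MT-2B UMIs per monocyte-like cell was uneven. The median cell had 0 UMIs under 1797 in both libraries but 22 and 11 UMIs under the control peptide. The 90th percentile was 9 and 17 UMIs against 81.9 and 79. The tenth of the cells with the most MT-2B held 78.8% and 70.2% of the UMIs under 1797 against 35.9% and 43.2% under the control peptide. Such a share tends to rise as counts fall, and the mean was 2.80 and 5.23 UMIs per cell against 33.5 and 25.5. Whether the transcript was more uneven under 1797 than its lower level gives was not tested. The share of monocyte-like cells with at least 1 MT-2B UMI was 28.7% (95% exact binomial interval 24.7% to 32.9%) and 38.2% (34.7% to 41.9%) in 1797, and 89.8% (86.8% to 92.4%) and 79.6% (75.9% to 83.0%) in control. These intervals cover counting error only. Median depth of the class was 10126 and 16809.5 UMIs against 17865.5 and 19322.5. With every cell thinned to 1000 UMIs the shares were 10.97% and 11.9% against 62.0% and 45.1%, still without overlap; 12 and 6 cells under 1797 and 0 under the control peptide were too shallow to enter.

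**Figure D4:**
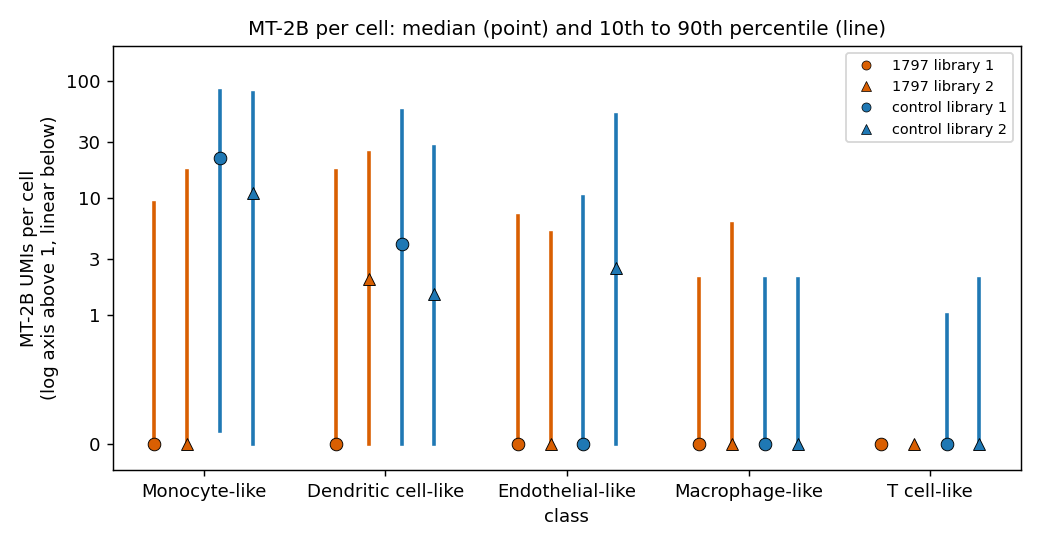
MT-2B UMIs per cell (vertical axis, logarithmic above 1 and linear below) in 5 classes and 4 libraries; points are the median and lines run from the 10th to the 90th percentile, orange for 1797 and blue for control, circles for library 1 and triangles for library 2. Only monocyte-like cells have both control medians (22 and 11) clear of both 1797 medians (0 and 0) among the 5 classes drawn, and the macrophage-like medians are 0 in every library.

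In the other high classes the cells were more mixed. Dendritic cell-like cells had a median of 0 and 2 MT-2B UMIs in 1797 and 4 and 1.5 in control, so the medians overlapped. Endothelial-like cells had a median of 0 and 0 against 0 and 2.5, and with thinning 12.9% and 10.0% of cells had a UMI in 1797 against 31.3% and 29.4% in control. Macrophage-like cells had thinned shares of 6.06% and 9.31% against 8.02% and 7.68%, which overlapped.

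RNA released from broken cells can enter any droplet, and no class here is known to lack MT-2B. The lowest class, B cell-like, had a UMI in 3.24% and 3.57% of cells in 1797 and in 13.4% and 14.3% in control, at median depths of 8255 to 9718.5 UMIs. Its CPM was 0.0507, 0.0373, 0.0577 and 0.0584 times that of all cells in the 4 libraries, so the B cell-like level followed the level of the whole library. In cluster 7 the same ratio was 0.110, 0.0939, 0.0991 and 0.0956. For each 100 MT-2B UMIs, T cell-like cells had 7.06 and 4.88 UMIs of LOC102166944 in the control libraries. Monocyte-like cells had 2.35 and 1.54 there, and all cells together 3.81 and 2.77. In the 1797 libraries the T cell-like ratio was 1.22 and 6.04, on only 3 and 11 UMIs of LOC102166944. The part of free RNA in the low classes was not tested.

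MT1A, a metal-binding MT1 form, was concentrated in dendritic cell-like and monocyte-like cells of the control libraries. In dendritic cell-like cells it stood at 1.84 and 1.76 CPM in 1797 (5 and 4 UMIs) and at 52.1 and 21.6 CPM in control (187 and 80 UMIs), a log2 fold change of -4.31 ± 0.60 (-3.51 without control library 1). In monocyte-like cells 1 and 18 UMIs in 1797, or 0.182 and 1.52 CPM, stood against 145 and 145 UMIs in control, or 17.2 and 14.1 CPM (-3.89 ± 0.60). The latter value was -3.31 without 1797 library 1 and -6.25 without 1797 library 2. The groups were widely separated in both classes. Endothelial-like cells differed less, at 3.81 and 3.66 CPM against 9.33 and 6.43 CPM (-0.94 ± 0.51). T cell-like cells had 5 and 0 UMIs against 41 and 39.

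Chondrocyte-like cells, few as they were, carried much of the MT1A of the 1797 libraries. This class, with COL2A1 and COL9A1, held 39 and 14 cells in 1797 and 2 and 5 cells in control, which is too few in control for a comparison. Its 39 cells of 1797 library 1 held 75.9% of all MT1A UMIs of that library, and the 14 cells of library 2 held 55.4%. The MT1A level in those cells was 272 and 103 CPM, with MT-2B at 1618 and 711 CPM. The trait was not particular to 1797, since the 5 cells of control library 2 held 17.5% of its MT1A UMIs, at 433 CPM. Chondrocyte-like cells also held 17.7% of the MT-2B UMIs of 1797 library 1. The MT-2B was again in few cells: in library 1 the median chondrocyte-like cell had 1 UMI and the highest 479. Without chondrocyte-like cells, MT1A in the sum of the rest was 0.826 and 0.440 CPM in 1797 and 5.07 and 3.94 CPM in control, so that the 2 groups moved further apart.

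LOC102166944, known here only by its LOC symbol, followed MT-2B and MT1A. In monocyte-like cells it had 1.82 and 1.52 CPM in 1797 and 44.99 and 20.2 CPM in control (10, 18, 379 and 208 UMIs), a log2 fold change of -4.26 ± 0.52. Dendritic cell-like cells held 9.18 and 7.92 CPM against 80.9 and 23.5 CPM (-2.58 ± 0.61). Endothelial-like cells held 2.07 and 7.33 CPM against 41.1 and 18.4 CPM (-2.98 ± 0.67), and T cell-like cells 0.278 and 0.980 CPM against 5.81 and 5.09 CPM (-3.07 ± 0.54). The groups stood apart in each of these 4 classes, but the sizes leaned on single libraries. The monocyte-like value was -3.50 without control library 1, and the dendritic cell-like value was -1.41 without control library 1 and -3.23 without control library 2. The endothelial-like value was -1.88 without 1797 library 1 and -3.66 without 1797 library 2, and the T cell-like value -2.45 and -4.25. Macrophage-like cells had the smallest tested difference of this gene, at 0.829 and 1.24 CPM against 2.71 and 2.34 CPM (-1.19 ± 0.45). Chondrocyte-like cells, too few to be tested, held 43.3% and 17.1% of its UMIs in 1797 and 0% and 14.7% in control. In the sum of all cells its control mean was 6.27 times the 1797 mean, and 8.69 times without chondrocyte-like cells.

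**Figure D5:**
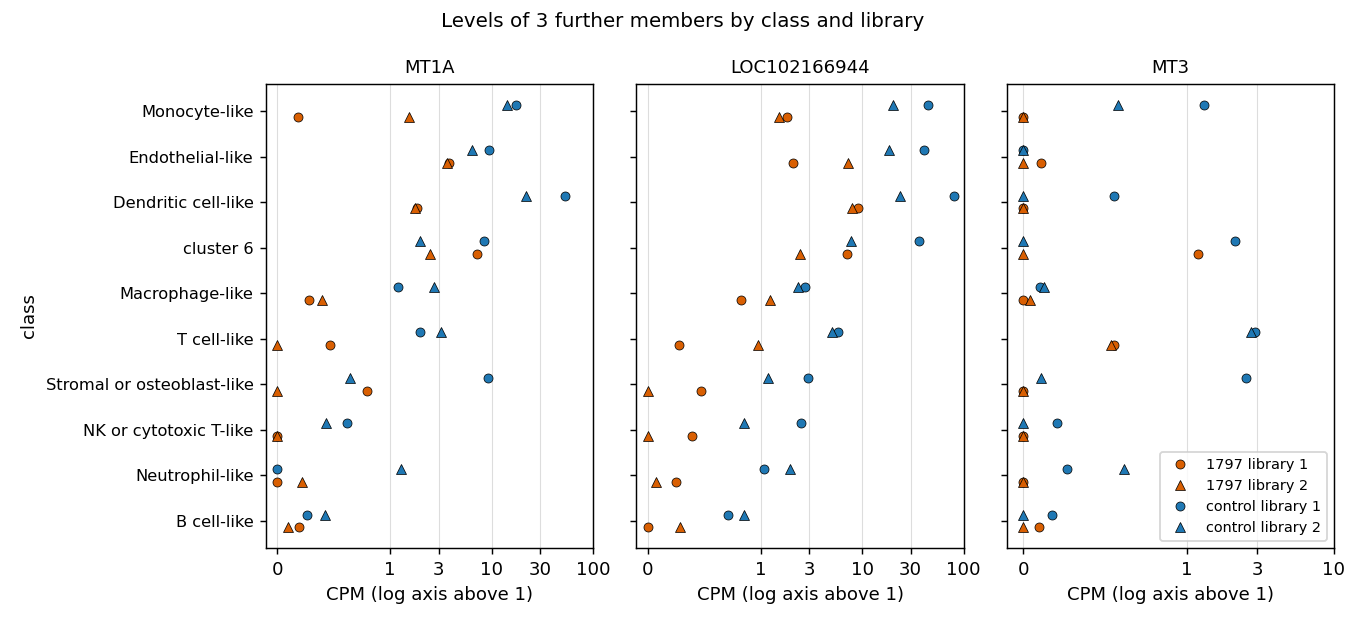
MT1A, LOC102166944 and MT3 in counts summed per class and library (CPM, logarithmic above 1 and linear below) for 10 classes; circles are library 1, triangles library 2, orange 1797 and blue control. Among the classes drawn, MT1A and LOC102166944 reach their highest control values in dendritic cell-like cells (52.1 and 80.9 CPM in library 1). Among the same classes MT3 has its highest control pair in T cell-like cells (2.91 and 2.75 CPM).

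MT3 was spread differently from the other members. In the control libraries T cell-like cells held 48.0% and 37.8% of its UMIs, and 23.7% and 13.2% of the UMIs of all genes. They had 61 and 34 MT3 UMIs or 2.91 and 2.75 CPM there, against 6 and 6 UMIs or 0.556 and 0.535 CPM in 1797 (log2 fold change -2.33 ± 0.43). Within that class the cluster led by ICOS, with FOXP3 among its leading genes, had 3.96 and 3.69 CPM in control and 0.846 and 0.7499 CPM in 1797. The cytotoxic cluster with GZMH and CD8A had 1.39 and 1.38 CPM in control and 0 UMIs in both 1797 libraries. The highest MT3 level of any cluster was in cluster 27, 120 cells with MKI67, TOP2A and CCR4 among their leading genes, at 32.9 and 29.6 CPM in control (34 and 26 UMIs) and 2.68 and 7.01 CPM in 1797 (2 and 2 UMIs). It has 11 cells in its smallest library and was not tested. Monocyte-like cells, the top class for MT-2B, had 11 and 6 MT3 UMIs in control and 0 in both 1797 libraries, which allows up to 0.545 and 0.253 CPM. NK or cytotoxic T-like cells had 1 MT3 UMI in all 4 libraries.

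MT1D was the scarcest member, and its level in dendritic cell-like cells rested mainly on control library 1. Of the 141 MT1D UMIs of that library, 68.1% came from dendritic cell-like cells, at 26.8 CPM. The same class in control library 2 had 8 UMIs or 2.16 CPM. In 1797 dendritic cell-like cells had 2 and 0 UMIs. Monocyte-like cells had 23 and 2 UMIs in control and 0 and 4 in 1797, so for MT1D the 2 control libraries differed from one another by more than the groups did in some classes.

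In the control libraries, monocyte-like cells with a UMI of MT1A or LOC102166944 held more MT-2B than those without. In control library 1, cells with a UMI of LOC102166944 had MT-2B at 3495 CPM (101 cells) and those without at 1419 CPM (381 cells), at median depths of 18896 and 17652 UMIs. For MT1A the values were 4243 CPM in 62 cells and 1526 CPM in 420 cells. Control library 2 showed the same order, with 2690.5 and 1054 CPM for LOC102166944 and 2902 and 1117 CPM for MT1A. There the cells with a UMI were also deeper, with medians of 23046 against 18756 UMIs for LOC102166944 and 23974 against 18952 for MT1A. All 62 and all 47 control monocyte-like cells with MT1A also had MT-2B, as did 88.3% and 77.6% of those without MT1A. For MT3, on few cells, the order differed between the control libraries. In control library 1 the 10 monocyte-like cells with MT3 had MT-2B at 2367 CPM and those without at 1907 CPM. In control library 2 the 6 cells with MT3 had 548 CPM and those without 1320.5 CPM. These are cells of the same library, not replicates.

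Likeness of pattern was taken over 72 sums, 18 classes in 4 libraries, as Pearson's r of log2(CPM + 1) among 10631 genes. The sums share libraries and differ in depth, so the values describe and carry no p. Among the members, LOC102166944 was close to MT1A (r = 0.82) and MT-2B (0.80), and MT-2B to MT1A (0.71), while MT3 reached at most 0.25 with any other. Outside the family the nearest genes to MT-2B were CTTNBP2NL (0.78), the chemokine CXCL16 (0.78), FAM129B (0.74), the chemokine CCL14 (0.74) and RAMP2 (0.74), a receptor-modifying protein of endothelium. The nearest to MT1A were CBR3 (0.60), SLC39A8 (0.58), CXCL16 (0.58), RAMP2 (0.58) and LOC100525346 (0.57). LOC102166944 had RAMP2 (0.60), the interferon-induced IFI6 (0.58), SLC39A8 (0.58), SLA-DRA (0.57) and CXCL16 (0.57). SLC39A8, which brings zinc into the cell, was thus near both of these members. For MT3 the nearest were TC2N (0.46), FBXO4 (0.43), GCNT4 (0.41), the chemokine receptor CCR4 (0.41) and DGKA (0.36). For MT1D they were CXCL9 (0.50), SLA-DOA (0.42), FCRLA (0.42), DPP10 (0.42) and ARF6 (0.42).

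Genes that handle the same metals were split between both directions. Of the 10 zinc exporters of the SLC30 family 9 were tested in the sum of all cells, 3 higher and 6 lower in 1797, with a median log2 fold change of -0.15 against -0.02 for all genes. SLC30A1, which carries zinc out of the cell and is a classic MTF1 target, stood at 28.7 and 34.9 CPM in 1797 and at 45.2 and 34.5 CPM in control, so the groups overlapped. In monocyte-like cells SLC30A1 stood at 32.5 and 40.1 CPM against 57.3 and 44.1 CPM (-0.43 ± 0.23). The 14 zinc importers of the SLC39 family split into 7 higher and 7 lower, with a median of -0.04. SLC39A8 in monocyte-like cells stood at 116 and 95.2 CPM in 1797 and 159.5 and 135 CPM in control (-0.43 ± 0.20). The factor MTF1 stood at 9.98 and 10.4 CPM against 10.4 and 9.79 CPM in monocyte-like cells, with overlapping groups. Among 8 genes of metal-responsive transcription 3 were higher and 5 lower in all cells, and among 9 tested genes of copper handling 5 were higher and 4 lower. None of the tested genes of these 4 lists was called by edgeR or DESeq2 in all cells or in monocyte-like cells (where DESeq2 called 0.384% of all genes). At an unadjusted p under 0.05 by edgeR (1.59% of all genes in all cells, 6.74% in monocyte-like cells), USF1 was lower in all cells, and SLC39A13 was higher, STAT3 higher and COMMD1 lower in monocyte-like cells.

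Oxidative stress genes, which share inducers with metallothioneins, lay mostly on the other side. In all cells 13 of the 14 were higher in 1797, with a median log2 fold change of 0.25 against -0.02 for all genes, and 0 were called by edgeR or DESeq2. HMOX1, which breaks down haem, stood at 411 and 369.7 CPM in 1797 and at 239.6 and 219 CPM in control, a log2 fold change of 0.75 ± 0.17 with an edgeR adjusted p of 1.00. In monocyte-like cells HMOX1 stood at 3122 and 1829 CPM against 1654 and 1249.5 CPM (0.83 ± 0.31, edgeR adjusted p = 0.74). The groups did not overlap there, but the gap between them was smaller than the gap between the 1797 libraries. Over all classes and the 7 lists, edgeR called 0 genes and DESeq2 called 2, HMOX1 higher in dendritic cell-like cells (log2 fold change 1.14; 0.199% of genes called) and TXN, a thioredoxin, higher in B cell-like cells (0.72; 0.426% of genes called). Glucocorticoid-responsive genes were split 4 higher and 6 lower in all cells (median -0.05), with FKBP5 at 279 and 305 CPM against 297 and 403 CPM. Hypoxia-responsive genes were split 5 and 5 (median 0.04). For these last 2 lists 0 genes passed an unadjusted p of 0.05 in all cells.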

How the data were processed

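Single-cell RNA was measured in 4 libraries, 2 given the 1797 peptide and 2 given a control peptide by their titles. The authors deposited filtered matrices of unnormalised UMI counts for each gene and barcode, with at least 500 UMIs in every barcode; per the submitters' processing notes Cell Ranger 5.0.0 and the Sscrofa11.1 build were used, while per the file headers the version was 7.0.1. How reads matching several genes were counted is not given in the sources used here. The other deposited files hold gene names and barcodes.

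Kept barcodes had 200 or more genes and less than 20% of their counts in 13 mitochondrial genes, and Scrublet in scanpy 1.11.5 (expected doublet rate 0.1) marked 1798 doublets, which were removed. Cells were clustered by Leiden (igraph 0.11.9, resolution 1.0, 2000 variable genes without the members, 30 principal components, 15 neighbours, no integration). Clusters were named from fixed marker lists, but the scoring rule for names was revised after the clusters had been seen. The alternative clusterings, whose own naming first agreed poorly with the main one, took the main class of most of their cells, a choice also made after seeing the data.

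Cells are not replicates, so counts were added up within each library and class. The 14 classes that had 50 or more cells per library, and all cells together, were tested by edgeR 4.0.16 (quasi-likelihood test, TMM factors, low counts filtered), adjusted by Benjamini-Hochberg over all genes of a fit and called at 0.05; DESeq2 1.42.0 was the second tool. The stromal or osteoblast-like class was fitted as an addition. Both tools were tested on simulated data. Errors of log2 fold changes are SEs from edgeR. With 2 libraries a group an exact permutation test cannot pass 0.05, and none was used.

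Named genes were the members, up to 3 genes of each pathway list with the smallest p in all cells or any gene called, and the 5 genes most like each member (mean of at least 5 CPM); STAT3 was named after its value was seen. The members, lists and tests were chosen with earlier results of these data known. Alternatives were DESeq2, no filter on low counts, each library left out, the replicate block and its crossing, doublets kept, a cell filter of 500 genes and 10% mitochondrial counts, Leiden resolutions 0.5 and 2.0 and another seed, and thinning to 1000 UMIs.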

Additional observations from a re-analysis of the deposited data

Results flagged for a closer look

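The difference in MT-2B between the peptide groups was set against that in monocyte-like cells by edgeR in 13 fits of a class by peptide interaction, 1 for each other class and each with the library as a block, chosen after seeing the data. Over all members these fits gave 44 comparisons of a member, 13 of them of MT-2B. In the unnamed cluster 15, a shallow cluster led by genes with LOC symbols, the log2 fold change was 1.99 ± 0.44 above that in monocyte-like cells, with an edgeR adjusted p of 0.041. In that fit 13 of 12768 genes (0.102%) were called. MT-2B there rested on 28 and 15 UMIs in 1797 and 59 and 22 in control. In macrophage-like cells the same difference was 2.21 ± 0.22 with an edgeR adjusted p of 0.052, and in dendritic cell-like cells 1.36 ± 0.18 with an adjusted p of 0.26. The monocyte-like values in these fits are the same ones that led to the choice of the members, so the tests are no independent evidence, and the part of depth was not tested.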

How the results depend on the processing

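In all cells edgeR called 0 of 5 members under every setting that kept the 4 libraries, and 0% of all genes. DESeq2 called 4 members (0.126% of all genes in either direction), and 3 without monocyte-like cells (0.108%). By class edgeR called 0 of 25 tests, against 12 by DESeq2, 8 with no filter on low counts and 0 to 7 with a library left out, the highest without control replicate 2 (4 without control replicate 1, 2 without 1797 replicate 2). With the replicate number as a block 2 of 25 were called (0.012% of all tests), and 2 with the crossed replicate block (0.0616%). Neither pairing called a member in all cells. With 2 libraries a group, and no shared origin in the labels, the numbers were not taken to pair the libraries: deviations of same-numbered libraries from their group means correlated at -0.31 in all cells and at -0.13 to 0.46 in the classes. The highest was in neutrophil-like cells, whose share of the cells was 18.2% and 15.9% in the libraries numbered 1 and 41.7% and 36.4% in those numbered 2. Of the pathway genes edgeR called 0, the replicate block 0 and DESeq2 2. DESeq2 called HMOX1 in dendritic cell-like cells (0.199% of genes called there) and TXN in B cell-like cells (0.426%). The log2 fold change of MT-2B in cluster 22 was -0.99, and ran from -2.97 without 1797 replicate 2 to 0.0087 without control replicate 2. Of the other values of single members and classes, 363 kept direction and side of the threshold and 58 passed the threshold in a setting. MT3 in control T cell-like cells was 2.83 CPM, 1.86 as the mean of the cells' CPM, 2.34 with doublets kept and 2.39 at Leiden resolution 0.5. Thinning moved the share of monocyte-like cells with an MT-2B UMI from 33.5% to 11.4% in 1797 and from 84.7% to 53.6% in control. Where calls moved, the cause was not tested. Of all cells, 88.6% kept their class at resolution 0.5 and 98.3% at 2.0.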
